A study of Sus scrofa with 24 samples.

Results

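The uterotubal junction (UTJ) is the narrow passage between the uterine horn and the oviduct, and in the pig it holds the functional sperm reservoir before ovulation. Of the 24 arrays of the series, the 8 labelled as controls were described here as a tissue in its own right, with the level of each gene, its spread between arrays and the genes that varied together, and with no comparison between treatments. All 8 arrays carried oviductal tissue taken after an infusion of 50 ml of BTS, the extender in which boar semen is diluted, and the other 16 arrays, 8 labelled as mated and 8 as infused with seminal plasma (SP-infused), served only as further arrays in which a spread or a correlation could be read again. According to the methods the animals were weaned Swedish Landrace sows in standing oestrus, and the left and right UTJ were collected on the day after the infusion. The 8 control arrays thus stand for 4 sows. The labels do not say which arrays came from the same sow, so the array was the unit, spread between arrays mixes sows with sides, and no p-value was computed. The labels state the infusion, whereas other passages of the methods describe the control sows as not inseminated, and the labels were followed here. The tissue was whole UTJ, and in such bulk RNA fewer cells of a type and less RNA per cell cannot be told apart.

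The wall of the UTJ has a folded mucosa lined by ciliated and secretory cells, a stroma of fibroblasts and collagen with vessels and immune cells, and layers of smooth muscle. Ciliated cells beat and move fluid and gametes, secretory cells release glycoproteins into the lumen, and the muscle narrows the passage. Oestrogen, acting through the receptor encoded by ESR1, induces the progesterone receptor (PGR) in the female tract, and ovarian steroids set much of the oviductal epithelial programme around ovulation.

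In the probe table used here 13257 probe sets were paired with 1 gene symbol, 427 with several and 13874 with none, out of 27558. With the brightest probe set taken for each gene, 12307 genes were described, on the log2 scale of the deposited values. On this scale 1 unit is a doubling of array signal, and signal also depends on how well each probe set hybridises, so a level is comparable between arrays for 1 gene but not between genes as a number of transcripts. RPS6, which encodes a ribosomal protein that every cell makes, was at a mean of only 3.61, which shows how far a dim probe set can lie from the abundance of its gene. The median of the gene means was 6.30, with quartiles of 4.89 and 7.62. A mean of 5 or more was reached by 9022 genes (73.3%) and a mean of 10 or more by 247 genes (2.01%). Of 16 genes typical of organs other than the UTJ, 12 had a mean below 5, and values in that range were read as low signal.

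Before the genes are described, 2 arrays need to be named. Replicate 1 had a compressed distribution, with probe set values that had an SD of 1.91 where the remaining 7 arrays had 2.06 to 2.13, and its correlation with the other arrays was 0.942 to 0.968. Replicates 2 and 4 were the most alike pair (r = 0.989), followed by replicates 6 and 8 (r = 0.986). The first principal component over the 9022 genes held 41.1% of the variance and set replicate 1 (loading 0.74) and replicate 3 (0.43) against the other 6 (-0.28 to -0.05). Nothing in the labels sets these 2 arrays apart from the rest of the group, and whether they differ in tissue composition, in RNA or in the sow was not tested. Without both arrays the first component held 39.2%. It was recomputed on the other 6 arrays, so it is not the axis that set replicates 1 and 3 apart. The main correlations below are also given without these 2 arrays.

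The 5 genes that mark the compartments of this tissue were all above the low-signal range on average. EPCAM, an adhesion molecule of epithelial cells, had a lowest value of 9.47, a median of 10.09 and a highest of 10.42. MYLK, the kinase that starts smooth muscle contraction, spanned 9.66, 10.29 and 10.97 in the same order. ITGA8, an integrin subunit of muscle and stromal cells, spanned 9.39, 9.71 and 10.11. PECAM1, an endothelial adhesion molecule, spanned 8.05, 8.53 and 9.09. These 4 genes had SDs of 0.24 to 0.40. OVGP1, the oviduct-specific glycoprotein of secretory cells, behaved otherwise: it was 5.71, 8.79, 4.49, 8.49, 11.88, 5.91, 6.42 and 6.19 in replicates 1 to 8. Its lowest value, in replicate 3, lay in the range read as low signal, so no fold is given against it, and only replicates 2, 4 and 5 exceeded 8. The same gene had a within-group SD of 2.17 in the 16 other arrays against 2.36 in the controls, so the spread was of similar size wherever it was measured.

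**Figure D1:**
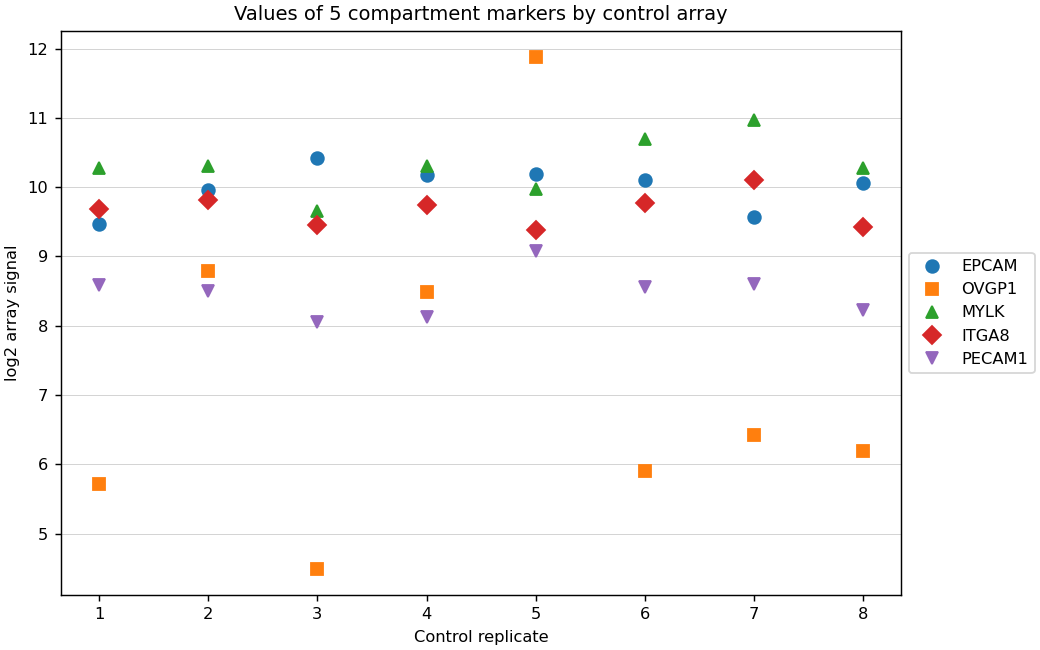
log2 array signal of the 5 compartment markers (vertical axis) in each of the 8 control arrays (horizontal axis, replicate number), 1 symbol per array and gene. EPCAM, MYLK, ITGA8 and PECAM1 lie in narrow bands, whereas OVGP1 runs from 4.49 in replicate 3 to 11.88 in replicate 5.

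The brightest genes belonged to mitochondria, translation, muscle and matrix. COX1, a mitochondrially encoded subunit of cytochrome oxidase, was the brightest (mean 13.19 ± 0.05, SD, n = 8), and ND5 (13.01), ND1 (12.62), CYTB (12.57) and COX2 (12.27) of the same genome were also among the first 15. Translation was represented by the elongation factor EEF1A1 (12.79) and by the ribosomal proteins RPS12 (12.47), RPS3A (12.20) and RPS3 (12.14). The matrix proteoglycans lumican (LUM, 12.47) and decorin (DCN, 12.23), the enteric smooth muscle actin ACTG2 (12.30), the cytoplasmic actin ACTB (12.29) and tropomyosin (TPM1, 12.14) completed the list together with SLC2A2. SLC2A2 encodes the glucose transporter of liver and pancreas, and its probe set stood second, at 13.09 ± 0.07 (SD, n = 8) in the controls and between 12.74 and 13.18 in the 16 other arrays. What that probe set hybridised was not checked here. The same flatness marked the most even genes with a mean of 8 or more, which were COX1, the splicing factor SRRM1 (8.96 ± 0.05), the 14-3-3 protein YWHAQ (11.10 ± 0.06), the initiation factor EIF1 (10.65 ± 0.06) and ND5 (SD, n = 8 for each).

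Spread between arrays was small for most genes and large for a few. The median SD over the 9022 genes was 0.27, and 1141 of them (12.6%) had an SD of 0.5 or more, 138 of these 1 or more. A range of 2 or more between the lowest and the highest array, a 4-fold difference in signal, was found in 497 genes (5.51%). In the 16 other arrays the within-group SD was 0.5 or more in 1014 of the same genes (11.2%), and the median was 0.23. Without replicates 1 and 3, the count of control genes with an SD of 0.5 or more was 683 in place of 1141. Among those 1141, replicates 1 and 3 were the 2 lowest arrays in 321 genes (28.1%) and the 2 highest in 158 (13.9%). The next pair at the low end was replicates 1 and 7, with 164 genes (14.4%), and at the high end replicates 3 and 5, with 138 (12.1%), then replicates 6 and 8, with 137 (12.0%).

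**Figure D2:**
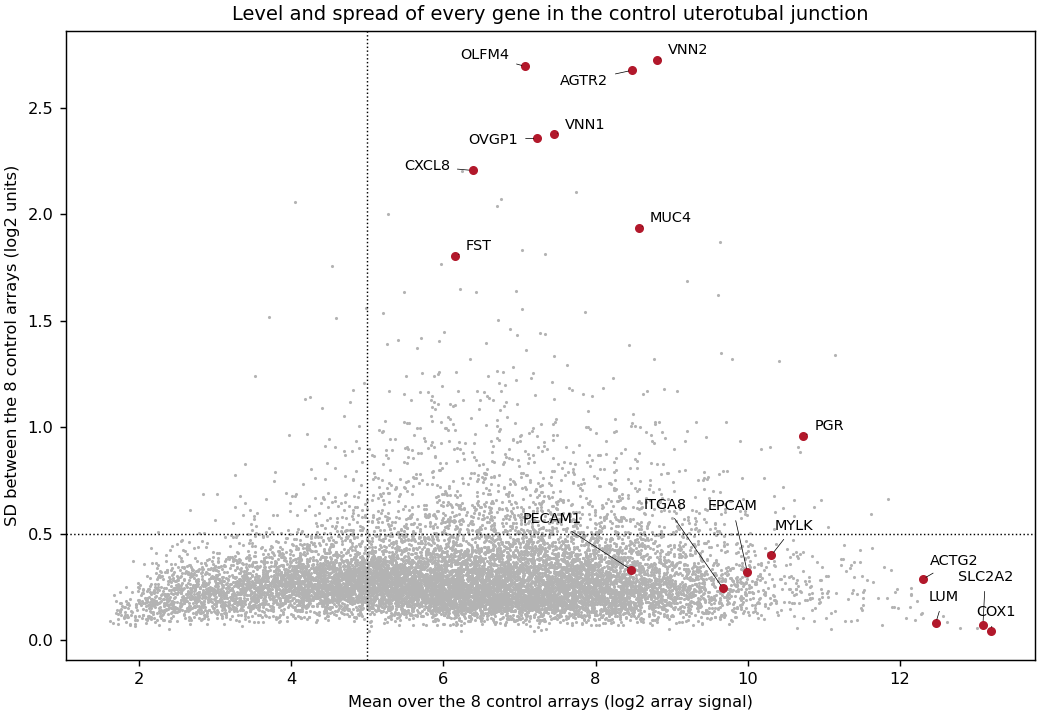
Each grey point is 1 of 12307 genes, with its mean over the 8 control arrays in log2 array signal (horizontal axis) and its SD between those arrays in log2 units (vertical axis). Dotted lines mark a mean of 5 and an SD of 0.5, and 17 genes named in the text are in red. The brightest genes such as COX1 and LUM lie near an SD of 0, and VNN2, OLFM4 and AGTR2 have the largest SDs.

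Epithelial genes were present throughout and moved together. All 16 measured members of the epithelial list had a mean of 5 or more, none reached 10, and 10 had an SD of 0.5 or more (12.6% of all genes did). EPCAM, keratin 8 (KRT8, 9.97 ± 0.61) and the sorting protein MAL2 (9.59 ± 0.51) had the highest means, and the tight junction protein CLDN4 (8.27 ± 0.80) and the transcription factor ELF3 (6.55 ± 0.76) the largest spread (SD, n = 8). The median pairwise correlation of the members over the 8 arrays was 0.707, against a median of 0.0222 over all pairs of the 9022 genes, and in the 16 other arrays, centred by group, it was 0.859. As a score (the mean deviation of the members from their own means) the list was lowest in replicate 7 (-0.85) and replicate 1 (-0.54) and highest in replicate 5 (0.51).

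Secretory genes had a wide spread. Of 14 measured members 13 had a mean of 5 or more and 12 an SD of 0.5 or more (12.6% of all genes did). Their score ran from -1.48 in replicate 7 to 1.25 in replicate 5. The median pairwise correlation was 0.531 (0.677 in the other arrays). It covered 76.9% positive pairs and a lowest pair of -0.867, so the members did not all move together. The mucin MUC4 was 4.18 in replicate 7 and 7.92 to 10.51 in the other 7 arrays. The phosphoprotein osteopontin (SPP1) had a lowest value of 6.54 in replicate 7, a median of 9.31 and a highest of 11.87 in replicate 5. WFDC2, an epithelial protease inhibitor, was 6.73 in replicate 7 and at least 8.21 elsewhere, and the iron-carrier-binding protein LCN2 was 4.40 in replicate 7 and at least 7.09 elsewhere. CFTR, the chloride channel that sets luminal fluid, was at 6.76 in replicate 7 and 7.11 in replicate 1, with 8.44 to 9.75 in the remaining 6. Clusterin (CLU, 9.99 ± 0.59), the phosphate transporter SLC34A2 (9.32 ± 0.56) and SPP1 (9.20 ± 1.68) had the highest means (SD, n = 8). The score followed that of the general epithelial list (r = 0.869, rho = 0.762, n = 8, r = 0.673 without replicates 1 and 7, the 2 farthest arrays, and 0.979 without replicates 1 and 3). OVGP1, a member of the list, was highest in replicate 5 like the score, but in replicate 7, where the score was lowest, it was near its median. The member GPX3 ran against the score, highest in replicate 7 (6.78) and lowest in replicate 5 (5.07).

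Ciliary genes formed another epithelial pattern. Of 30 measured genes of motile cilia, 28 had a mean of 5 or more and 17 an SD of 0.5 or more (12.6% of all genes did). Their median pairwise correlation was 0.802 (0.837 in the other arrays). RFX3, a transcription factor of ciliogenesis, had the highest mean (9.06 ± 0.31), followed by CFAP53 (8.98 ± 0.31) and ARMC4 (8.67 ± 0.53), both needed for dynein arms or cilia motion (SD, n = 8). The widest were CDHR3, a cadherin of ciliated cells, at 9.62 in replicate 3, 9.70 in replicate 5 and 7.55 to 8.98 elsewhere, and SNTN, a protein of the ciliary tip, at 9.39 and 9.57 in those arrays and 7.47 to 8.02 elsewhere. The list score was 0.80 in replicate 5, 0.55 in replicate 3 and -0.45 to -0.08 in the other 6. DEUP1, which builds the deuterosomes from which centrioles are made, had another order and was 8.33 in replicate 5, 7.71 and 7.68 in replicates 2 and 4, and 6.01 to 7.17 in the rest. The cilia score correlated with the epithelial score at r = 0.464 (rho = 0.381, n = 8), 0.743 without replicates 1 and 7, 0.331 without replicates 1 and 3, 0.232 without replicate 5 and 0.629 in the 16 other arrays, so the value depended on which arrays entered.

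Smooth muscle genes were bright and ran opposite to the epithelium. All 20 measured members had a mean of 5 or more, and 10 of them 10 or more (2.01% of all genes did). An SD of 0.5 or more was found in 7 (12.6% of all genes). ACTG2 (12.30 ± 0.29), TPM1 (12.14 ± 0.24) and alpha smooth muscle actin (ACTA2, 11.96 ± 0.24) had the highest means (SD, n = 8). Phospholamban (PLN), which restrains calcium uptake, had the largest spread, from 7.60 in replicate 3 through a median of 8.83 to 10.21 in replicate 7. PGM5, a protein of muscle adhesion plaques, ran from 8.63 to 10.93 between the same 2 arrays. The median pairwise correlation was 0.715 (0.884 in the other arrays, 0.886 in the controls without replicates 1 and 3). It covered 93.2% positive pairs and a lowest pair of -0.62, so not all members moved together. Of the members, 2 fell in group 1 and 2 in group 4 below, which ran in opposite directions in replicates 1 and 3. The list score was highest in replicate 7 (0.54), replicate 1 (0.31) and replicate 6 (0.27), and lowest in replicate 5 (-0.49) and replicate 3 (-0.39). Against the epithelial score the correlation was -0.897 (rho = -0.929, n = 8), -0.802 without the 2 farthest arrays, -0.88 without replicates 1 and 3 and -0.853 over the 16 other arrays. Among the single markers, MYLK and ITGA8 followed each other (r = 0.836) and both ran against EPCAM (r = -0.623 and -0.625, and -0.772 and -0.786 without replicates 1 and 3). Values of 1 array are relative to its whole RNA, so less epithelium and more muscle in a piece of tissue cannot be told apart here, and the part of this balance in the spread of single epithelial genes was not tested.

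**Figure D3:**
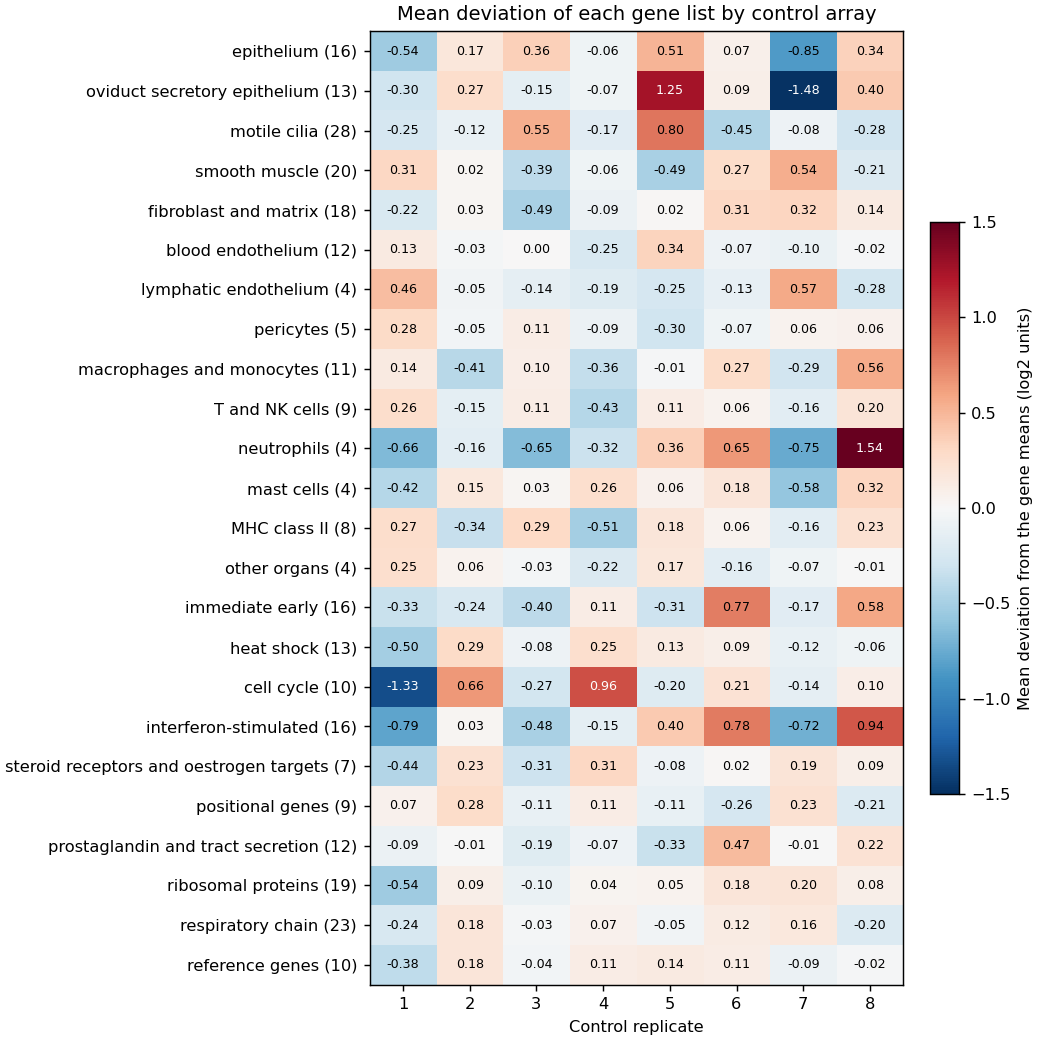
Each row is a gene list with the number of members at a mean of 5 or more in brackets, each column 1 of the 8 control arrays, and each cell the mean deviation of those members from their own means over the 8 arrays, in log2 units (red above, blue below; the colour scale stops at 1.5). Epithelium and smooth muscle have opposite colours in replicates 1, 3, 5 and 7, and the lowest cell of the cell cycle row is replicate 1.

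Matrix genes were bright but did not vary as 1 unit. All 18 fibroblast and matrix members had a mean of 5 or more and 9 were at 10 or more, yet the median pairwise correlation was 0.19 (0.335 in the other arrays, 0.0917 without replicate 3 and 0.341 without replicates 1 and 3). Lumican hardly varied (12.34 to 12.58). The fibrillar collagens did: COL1A1 was 10.40 in replicate 1, 11.39 in replicate 3 and 12.00 to 12.47 elsewhere, and COL3A1 was 10.70 and 10.72 in those 2 arrays and 11.75 to 12.26 elsewhere. Dermatopontin (DPT), which organises collagen fibrils, had the widest range, from 6.56 in replicate 3 to 9.97 in replicate 7. Periostin (POSTN) ran differently, lowest in replicate 8 (7.08) and highest in replicate 7 (9.17).

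The 12 blood endothelial genes had a median SD of 0.31, against 0.27 over all genes. All had a mean of 5 or more. An SD of 0.5 or more was found in 1 of them, the endothelial matrix protein MMRN2 (5.91 ± 0.73), against 12.6% of all genes. Endoglin (ENG, 9.22 ± 0.20), KDR, the main receptor for VEGF (8.68 ± 0.48), and PECAM1 were the highest (SD, n = 8), and the list's median pairwise correlation was 0.216 (0.0456 without replicate 4). The 4 lymphatic genes were led by the chemokine CCL21 (9.34 ± 0.45), which was 10.24 in replicate 7 and 9.75 in replicate 1. Among 5 pericyte genes RGS5, a regulator of G protein signalling in mural cells, was the highest (10.31 ± 0.41).

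Genes of resident immune cells were above the low-signal range in part. Of 13 macrophage genes 11 had a mean of 5 or more (73.3% of all genes did). They were led by the complement components C1QB (9.36 ± 0.52), C1QC (8.47 ± 0.43) and C1QA (8.20 ± 0.39). Of 17 T and NK cell genes 9 did, a smaller share than over all genes, and the other 8 lay below 5. The highest were NCR1 (7.63 ± 0.29), CD2 (6.46 ± 0.39) and CD3E (6.11 ± 0.29) (SD, n = 8). The median pairwise correlation was 0.668 for the macrophage genes and 0.5 for the T and NK cell genes (0.278 without replicate 4). Of 7 measured B and plasma cell genes 3 had a mean of 5 or more. JCHAIN, which joins secreted IgA and IgM, was at 9.86 ± 0.50, and MZB1 and DERL3 were at only 5.10 and 5.06. The other 4, with the B cell receptor subunit CD79A among them, lay below 5 on average. All 8 MHC class II genes had a mean of 5 or more. SLA-DRA had a lowest value of 9.27 in replicate 4, a median of 9.91 and a highest of 10.48 in replicate 3. The T and NK cell score followed the MHC class II score closely (r = 0.953, rho = 0.833, n = 8, 0.912 without the 2 farthest arrays and 0.878 in the other arrays), and both were lowest in replicate 4 (-0.43 and -0.51). Replicate 2, the array most like replicate 4 over all probe sets, was the next lowest for class II (-0.34). The macrophage score was also lowest in these arrays, at -0.41 in replicate 2 and -0.36 in replicate 4. Its correlation with the class II score was not computed, since only 8 chosen pairs of lists were correlated. Of 9 neutrophil genes 4 had a mean of 5 or more, namely CXCL8, ITGAM, CXCR2 and MMP9. S100A8 and S100A9, which neutrophils hold in abundance, were at 3.72 and 3.42, and S100A12 exceeded 5 only in replicates 5, 6 and 8. A dim probe set can lie far from the abundance of its gene, as RPS6 shows, so the number of neutrophils was not read from these values. The 5 erythrocyte genes all lay below 5, as did 12 of 16 genes of other organs (median of their means 3.48). The 4 exceptions were APOA1, ACTN3, UMOD and GFAP, of which APOA1 was the brightest (7.27 ± 0.34).

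Several of the most variable genes separated replicates 1 and 3 from the other 6. AGTR2, the type 2 angiotensin receptor, was 4.81 in replicate 1, 3.62 in replicate 3 and 9.45 to 10.70 in the other 6, a range of 7.08. FST, which encodes the activin-binding follistatin, ran the other way, at 8.85 and 9.26 in those arrays and 4.86 to 5.43 in the other 6. SV2B, a synaptic vesicle protein, was 4.98 and 3.64 against 7.00 to 8.73, and REXO2, an oligoribonuclease, was 7.57 and 7.38 against 10.12 to 10.50. The BMP antagonist SOSTDC1 was 5.08 and 4.42 against 7.46 to 9.94, and the muscle and bone peptide OSTN was 3.92 and 3.91 against 6.10 to 9.34. Of these genes AGTR2 and FST reached, in the 16 other arrays, from 5.44 to 11.43 and from 4.72 to 8.58. AGTR2 below and FST above the range of the other 6 control arrays thus also occurred outside the controls. No array there reached the values of replicates 1 and 3 for either gene. LPL, the lipoprotein lipase that is placed in the adipose list, was 7.61 and 7.77 in replicates 1 and 3 and at most 5.49 elsewhere. The other 6 measured genes of that list, PLIN4, LIPE, PLIN1, PCK1, CIDEC and LEP, were each highest in replicate 1 (4.03 to 6.93), and of these only PLIN4 had a mean of 5 or more (6.18). Replicate 1 also had the highest lower quartile over all probe sets, 4.63 against 4.22 to 4.43 in the remaining arrays. Several genes of other organs, though not all, were highest in replicate 1 as well, with ACTN3 and GFAP among them. Being highest in that array is thus not particular to adipose genes, and the part of fat tissue in replicate 1 was not tested.

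Some steroid signalling genes followed the same 2 arrays and others did not. Of 9 measured steroid receptors and oestrogen targets 7 had a mean of 5 or more (73.3% of all genes did) and 5 an SD of 0.5 or more (12.6%). The median pairwise correlation was 0.19, and -0.00293 without replicate 3. PGR was 8.58 in replicate 1, 10.13 in replicate 3 and 10.92 to 11.48 in the other 6, and ESR1 was 8.48, 8.71 and 9.33 to 10.03. PGRMC1, also in the list, ran the other way and was highest in replicate 3 (10.03) and replicate 1 (9.66). FKBP5, RXFP1, HSD11B1 and HSD11B2 are not in the list. They belong to groups 3 and 4 below, which separate replicates 1 and 3, so they add no separate reading of the list. FKBP5, a co-chaperone and classical target of steroid receptors, was 10.20 and 9.93 in replicates 1 and 3 against 7.72 to 8.23. The relaxin receptor RXFP1 was 7.31 and 7.99 against 9.01 to 9.47. HSD11B1 and HSD11B2, which activate and inactivate glucocorticoids, had opposite orders: 7.81 and 7.73 against 9.19 to 10.55 for the former, and 7.38 and 7.79 against 5.35 to 6.60 for the latter. The prolactin receptor PRLR was instead highest in replicate 7 (8.45), and IGF1, a growth factor of the stroma, was 8.90 there, 9.39 and 9.78 in replicates 6 and 8, and 10.56 to 11.02 in the other 5. ESR2 and CYP26A1 had means below 5.

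Prostaglandin genes split between these patterns. PTGS2, the inducible cyclooxygenase, was highest in replicates 6 and 8 (8.79 and 8.70) and lowest in replicates 1 and 3 (5.48 and 5.63). The receptors PTGER3 and PTGFR were lowest in the same low arrays (4.75 and 4.08, 8.13 and 7.89) and highest in replicate 7 (7.58 and 10.40). HPGD, which degrades prostaglandins, was highest in replicate 3 (8.53) and replicate 1 (6.96), with 5.21 to 5.90 elsewhere. Of 13 measured members of the list, 12 had a mean of 5 or more and 9 an SD of 0.5 or more (12.6% of all genes did). The median pairwise correlation, however, was 0.0421 (-0.116 without replicate 5). The plasminogen activator PLAU (6.09 to 9.14) and its receptor PLAUR (6.38 to 8.99), in the same list, were not ordered alike: replicates 1 and 3 were among the highest for PLAU and the lowest for PLAUR.

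**Figure D4:**
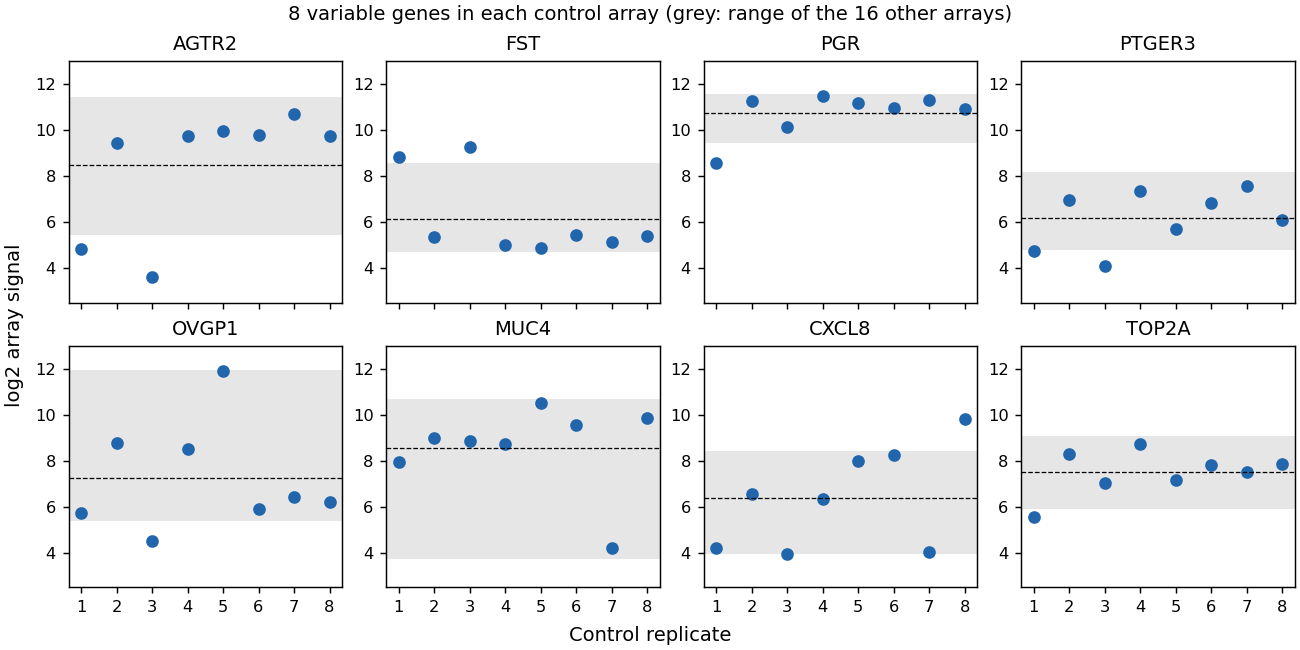
log2 array signal (vertical axis) of 8 variable genes in each control array (blue points, replicate number on the horizontal axis), with the mean over the 8 arrays (dashed line) and the range of the 16 mated and SP-infused arrays (grey band). AGTR2, PGR and PTGER3 are low and FST high in replicates 1 and 3, MUC4 is low in replicate 7, and CXCL8 is highest in replicate 8.

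Interferon-stimulated and immediate early scores were highest in replicates 6 and 8. Of 16 interferon-stimulated genes with a mean of 5 or more, 13 had an SD of 0.5 or more (12.6% of all genes did). The score was 0.94 in replicate 8, 0.78 in replicate 6, -0.79 in replicate 1 and -0.72 in replicate 7. IFIT3 was 8.93 and 8.54 in replicates 8 and 6 and 5.39 to 7.10 elsewhere, and IFIT1 was 9.94 and 9.78 against 7.22 to 8.37. The antiviral GTPase MX1 had a lowest value of 8.24, a median of 9.51 and a highest of 10.31. CXCL8, the main neutrophil-attracting chemokine, was 9.79 in replicate 8 and 8.25 in replicate 6, but 7.98 in replicate 5, and 3.92 to 6.56 in the other 5. CYP24A1, which inactivates vitamin D, was 9.27 and 8.94 in replicates 8 and 6 and 3.45 to 7.13 elsewhere, and TNIP3, an inhibitor of NF-κB signalling, was 9.38 and 9.37 against 3.96 to 8.09. Of 18 immediate early genes 16 had a mean of 5 or more, and their median pairwise correlation was 0.623 in the controls and 0.0935 in the other arrays, with scores of 0.77 in replicate 6 and 0.58 in replicate 8. Among them NR4A3 was 6.88 and 6.86 in these arrays and 3.94 to 4.86 elsewhere, whereas FOS was highest in replicate 6 (9.36) and replicate 4 (8.88). The interferon score correlated with the neutrophil score, which holds CXCL8 and the receptor CXCR2 (r = 0.952, rho = 0.976, n = 8, 0.966 without replicates 6 and 8, 0.618 in the other arrays). The neutrophil score is the mean of only 4 genes. CXCL8 had an SD of 2.2 and the other members 0.31 to 0.77, so CXCL8 weighed most in the score. Whether the score follows the number of neutrophils was not tested. CXCR2 was 7.32 in replicate 8 and 6.04 in replicate 6, with 4.98 to 5.51 in the remaining 6. The interferon and immediate early scores correlated at 0.766, and at 0.112 without replicates 6 and 8 and 0.194 in the other arrays, so that correlation rested on those 2 arrays.

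Proliferation genes were the most tightly tied list and were lowest in replicate 1. All 10 measured cell cycle genes had a mean of 5 or more and 8 an SD of 0.5 or more (12.6% of all genes did). The median pairwise correlation was 0.921 in the controls and 0.93 in the other arrays. TOP2A, the topoisomerase of dividing cells, was 5.56 in replicate 1, 7.02 in replicate 3, 8.74 in replicate 4 and 8.28 in replicate 2. The list score was -1.33 in replicate 1, 0.96 in replicate 4 and 0.66 in replicate 2. MCM2 was an exception: its probe set was highest in replicate 3 (6.02) and lowest in replicate 5 (4.99). All 13 heat shock genes had a mean of 5 or more and 2 an SD of 0.5 or more, near the 12.6% of all genes. Their score followed that of the cell cycle (r = 0.923, rho = 0.786, n = 8), with 0.735 without the 2 farthest arrays and 0.358 in the other arrays. FKBP4, a co-chaperone of steroid receptors, was 8.01 in replicate 1 and 9.08 to 10.18 elsewhere. Ribosomal protein genes were also lowest in replicate 1 (score -0.54, with -0.10 to 0.20 in the other 7), and their correlation with the cell cycle score went from 0.745 to 0.103 without replicate 1 and to -0.44 without replicates 1 and 3. The compressed distribution of replicate 1 stands beside these values, and its part in them was not tested.

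Of 12 measured genes of developmental position, 9 had a mean of 5 or more (73.3% of all genes did), and HOXA13, HOXD13 and LHX1 lay below. HOXA9, a gene of the embryonic duct, was at 8.72 ± 0.66, EMX2 at 7.92 ± 0.32 and HOXA5 at 7.86 ± 0.37 (SD, n = 8). Values of HOXA9 were 9.12 to 9.50 in replicates 2, 4, 5 and 7 and 7.93 to 8.47 in replicates 1, 3, 6 and 8. WNT7A, a signal of the uterine epithelium, was 7.69 in replicate 3 and 7.32 in replicate 1 and 5.80 to 6.48 elsewhere. The median pairwise correlation of the 9 members with a mean of 5 or more was 0.109 (0.0568 without replicate 8, 0.441 without replicates 1 and 3).

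When the 300 genes with the highest SD among those with a mean of 6 or more were grouped by correlation alone, 272 of them fell in 6 groups of 10 genes or more. The genes entered with an SD of at least 0.736, and their median SD was 0.92. In the 16 other arrays, which were not used to choose them, the median within-group SD of the 300 was 0.78, and 259 of the 300 had 0.5 or more (11.2% of all genes did). Correlations within the groups are given as a description, since the groups were built from them, and the same pairs in the other arrays are the independent reading.

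Group 1 held 73 genes, led by PGM5, AKAP5, PLA2G4E, ADAMTS19 and SOGA3, and was low in replicate 3 (-1.70) and replicate 1 (-1.10) and highest in replicate 7 (1.11). It held AGTR2, SOSTDC1, OSTN, PRLR, PTGER3 and PTGFR and the muscle gene PLN, along with the gap junction protein GJA1, whose values were 9.26 and 9.13 in replicates 1 and 3 and 11.04 to 11.27 elsewhere. The median pairwise correlation was 0.841 in the controls, 0.569 without replicates 1 and 3 and 0.702 in the other arrays. Group 3, of 63 genes led by VCAN, TDG, PRKG2, RXFP1 and PRKAR2B, was also low in replicate 1 (-1.63) and replicate 3 (-0.97), but level or slightly low in replicate 7 (-0.25). It held PGR, PTGS2 and 6 genes of the cell cycle list. VCAN, the matrix proteoglycan versican, was 8.17 and 8.71 in replicates 1 and 3 and 10.01 to 11.56 elsewhere. Within group 3 the median pairwise correlation was 0.77 in the controls, 0.383 without replicates 1 and 3 and 0.374 in the other arrays. Group 4, of 44 genes led by FST, PBX4, FKBP5, ADCY5 and GLUL, was the mirror image, at 1.41 and 1.26 in replicates 1 and 3 and -0.54 to -0.25 in the other 6. Glutamine synthetase (GLUL) was 10.54 and 10.66 against 8.84 to 9.30, and the crosslinking enzyme TGM2 was 11.63 and 11.01 against 8.95 to 9.51. Within group 4 the same median correlation was 0.819 in the controls and 0.0381 without replicates 1 and 3, so within the controls it rested on those 2 arrays. In the other arrays it was 0.349, where the median over all pairs of the 300 genes was 0.0154.

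Group 2 held 67 genes, led by RBP4, USP18, ELF3, PARP14 and MPZL2. It was lowest in replicate 7 (-1.60) and replicate 1 (-0.89) and highest in replicate 8 (1.10), and 5 of its genes were in the secretory list, 2 in the general epithelial list and 7 in the interferon-stimulated list. VNN2, a pantetheinase and the gene with the largest SD of all those with a mean of 5 or more (2.72), belonged to it, at 4.78 and 5.06 in replicates 1 and 7, 7.05 in replicate 3 and 10.25 to 11.11 in the other 5. The related VNN1 and the secreted glycoprotein OLFM4 were low in the same 3 arrays (4.57 to 5.07 and 3.82 to 4.09) and 7.54 to 10.22 and 7.65 to 10.39 in the other 5, though both were placed in group 3. UPK1B, a membrane protein of specialised epithelia, was 5.53 in replicate 7 and 8.84 to 11.20 elsewhere. The median pairwise correlation was 0.759, 0.791 without replicates 1 and 3 and 0.623 in the other arrays. Group 5, of 15 genes led by LPAR3, CLDN8, EYA2, SLC28A3 and LCN2, was lowest in replicate 7 (-1.79) and highest in replicates 5 and 3 (1.06 and 0.87), and held WFDC2 and IGF1. It held together in the other arrays as it did in the controls (0.805 and 0.821). Group 6, of 10 genes led by FLRT2, NT5DC1, FAM3B, ERICH5 and SLC13A4, held OVGP1 and was high in replicate 5 (1.84), replicate 2 (1.17) and replicate 4 (0.75) and below 0 in the other 5 (0.836, and 0.681 in the other arrays). GMNC, the upstream regulator of multiciliated cell fate, was in this group, at 8.70, 7.93 and 7.91 in replicates 5, 2 and 4 and 5.11 to 6.57 elsewhere. Epithelial scores of these 3 arrays, 0.51, 0.17 and -0.06, did not set them apart from the rest in the same way.

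**Figure D5:**
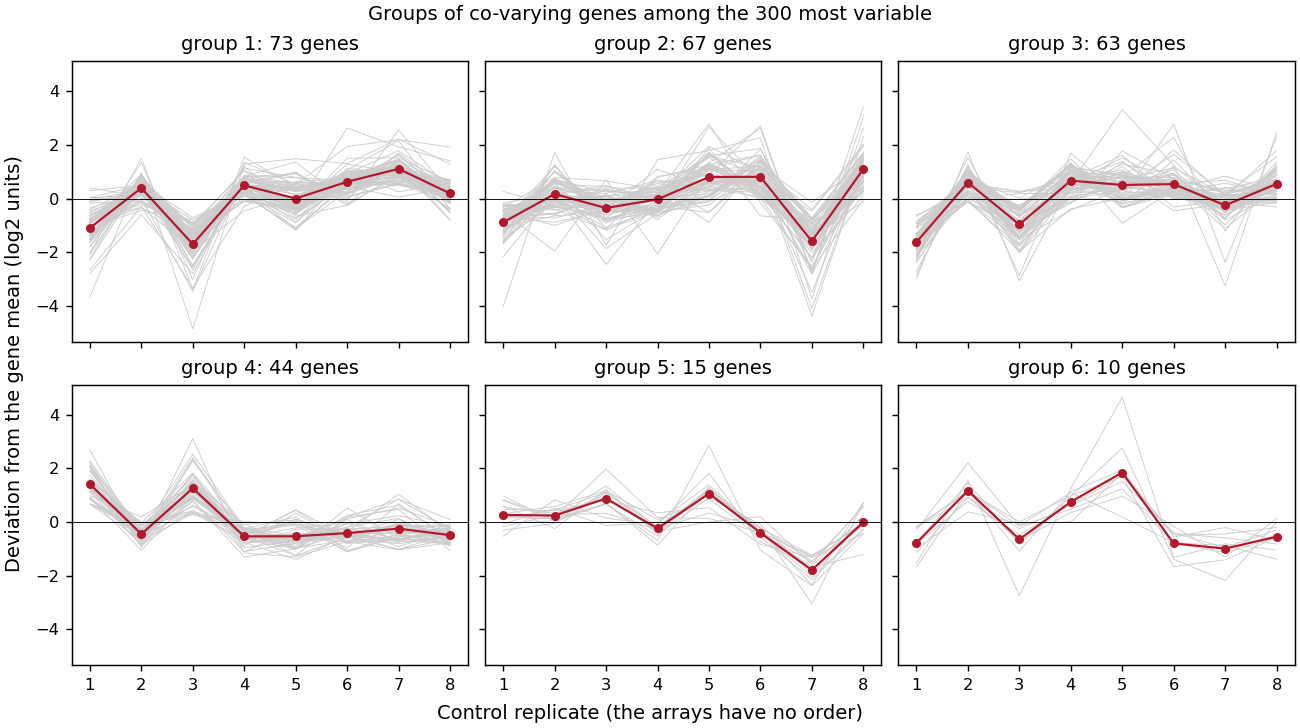
Deviation of each gene from its mean over the 8 arrays, in log2 units (vertical axis), by control replicate (horizontal axis, with no order among arrays), for the 6 groups of co-varying genes. Grey lines are single genes and red points their mean, and groups 1, 3 and 4 separate replicates 1 and 3 while groups 2 and 5 separate replicate 7.

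Genes most like each marker were read among genes with a mean of 6 or more and an SD of 0.3 or more, over 8 arrays. MYLK had the most company, with 47 genes at r of 0.9 or more, and the closest were TNFAIP8L3 (0.989), PLN (0.987), ASB2 (0.983), CAMKK2 (0.982) and PLEKHO1 (0.981). In the other arrays these 5 had r of 0.707 to 0.976 with MYLK. ITGA8 had 30 such genes, led by SLC16A1, LYPD6, SSPN, PAIP2B and PRKG1 (0.957 to 0.967), of which SSPN, a member of the dystrophin complex, and PRKG1, the cGMP-dependent kinase of smooth muscle, had 0.868 and 0.787 in the other arrays, and SLC16A1, LYPD6 and PAIP2B had 0.547, 0.411 and 0.299. EPCAM had 10, led by GCLC, C13H3orf62, DSP, RBM47 and ZNRF2 (0.921 to 0.956), and RBM47, an epithelial RNA-binding protein, had 0.91 in the other arrays whereas GCLC had 0.217. OVGP1 had 11, led by LIMCH1, RAPGEFL1, VSIG10, the mineralocorticoid receptor NR3C2 and NT5DC1 (0.94 to 0.969), which had 0.619 to 0.832 in the other arrays. PECAM1 had 1, FOLR2 (0.931), a folate receptor of macrophages, followed by AKIRIN2, APOA1, MDFIC and TMEM17 (0.786 to 0.843), and FOLR2 had 0.244 in the other arrays. With 8 arrays these lists depended on single arrays: leaving out 1 control array kept 3 to 5 of the MYLK genes among the first 5, but as few as 0 of those of EPCAM (without replicate 1 or 3), OVGP1 (without replicate 5) and PECAM1 (without replicate 3 or 5).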

How the data were processed

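RNA of whole UTJ was hybridised to Affymetrix Porcine Gene 1.0 ST arrays. The deposited table holds log2 values that the authors made with robust multi-array average (RMA), which subtracts background, equalises the distributions between arrays and summarises each probe set, with 1 column per array and nothing pooled. The version of the RMA package and the genome build are not given in the sources used here. RMA compresses differences among dim probe sets, and the number of arrays, 8, limits the precision.

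Groups came from the labels. For each gene the single-symbol probe set with the highest mean over the control arrays was kept, and 12804 of 12965 gene numbers were found in the pig gene table. Means, SDs, principal components and Pearson correlations were computed in Python 3.11.15 (numpy 2.4.6, pandas 2.3.3), without tests. A list score is the mean, over members with a mean of 5 or more, of values centred per gene. The 300 most variable genes were joined by average linkage on 1 minus r, split at 0.4. On simulated data with 3 planted groups of 60 genes, most genes of a planted group were on average found together. The planted groups were more tightly tied than the real ones, and groups that merged still counted as found. The simulation therefore cannot show that separate groups are told apart in data like these. In the 16 other arrays each group mean was subtracted first. Cyclic loess (limma 3.58.1, R 4.3.3), other gene summaries and left-out arrays were the alternatives.

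The members and lists were chosen with earlier results of these data known. Named were the 5 markers, the 15 genes of highest mean, the 25 of highest SD (mean of 6 or more), the 5 of lowest SD (mean of 8 or more), the 3 highest and 2 most variable members of each list, the 5 genes most like each marker and the 5 leading genes of each group. From these, the text describes a selection. CD79A, CFTR, CIDEC, COL3A1, CYP26A1, DEUP1, ESR1, ESR2, GJA1, GMNC, GPX3, HOXA13, HOXD13, HPGD, HSD11B1, HSD11B2, IFIT1, LEP, LHX1, MCM2, MMP9, NR4A3, PCK1, PLAU, PLAUR, PLIN1, REXO2, RPS6, S100A8, S100A9, S100A12, TGM2 and WFDC2 fall outside that rule and were chosen after their values were seen. Lists of nerve and glia (1 of 6 measured genes at a mean of 5 or more), mast cells (4 of 6), mesothelium (1 of 4) and the ovary (0 of 1) are not described further, nor are those of the respiratory chain (23 of 23) and reference genes (10 of 10).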

Additional observations from a re-analysis of the deposited data

Results flagged for a closer look

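Of 168 genes checked, 9 had 1 array set apart from the other 7 by a gap that was wide for 8 values (Dixon's ratio of the gap to the whole range, above its critical value), and so did 1 of 25 list scores. Chance alone gives such a gap in about 1 in 20 groups of values that are independent, and since the 8 arrays come from 4 sows the ratio served here to pick out values and not as a test. In replicate 7 it was the lowest value of LCN2 (gap of 0.649 of the range, 4.40 against a next value of 7.09), MUC4 (0.591, 4.18 against 7.92) and UPK1B (0.585, 5.53 against 8.84). In replicate 1 it was the lowest value of PGR (0.533, 8.58 against 10.13), of RPS3A (0.605, 11.99 against 12.18) and of the score of the ribosomal proteins (0.596, -0.54 against -0.10). In replicate 5 it was the highest value of APOA1 (0.533, 8.00 against 7.37) and of UMOD (0.615, 6.34 against 5.86). CXCR2 was set apart as the highest in replicate 8 (0.549, 7.32 against 6.04), and CD3E as the lowest in replicate 4 (0.552, 5.49 against 6.02).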

How the results depend on the processing

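No paired analysis was possible because no groups were compared, so there was nothing to pair across groups. A correlation or share was taken as unmoved when it shifted by less than its jackknife standard error over the 8 arrays. Counts were held to a fixed fold limit instead. With all probe sets in place of genes the counts were 18121 at a mean of 5 or more, 604 at 10 or more and 2386 with an SD of 0.5 or more. Leaving out replicates 1 and 3, which was chosen after seeing the data, gave 683 genes with an SD of 0.5 or more, and median pairwise correlations of 0.886 for smooth muscle, 0.838 for macrophages, 0.805 for MHC class II, 0.441 for positional genes, 0.559 for the respiratory chain (0.383 with all arrays) and 0.171 for ribosomal proteins (0.783 with all arrays). It also gave 0.752 between cell cycle and heat shock and -0.443 between cell cycle and ribosomal scores. After cyclic loess the list values were 0.742 for MHC class II, 0.324 for heat shock, 0.317 for ribosomal proteins and 0.19 for the respiratory chain, and of the 5 genes most like each marker 2 stayed in place for EPCAM, 3 for OVGP1, 2 for MYLK, 0 for ITGA8 and 3 for PECAM1. Spearman's coefficient gave 0.643 for cilia, and without a minimum on the mean the neutrophil and interferon scores correlated at 0.907. Leaving out 1 array gave -0.00293 to 0.213 for steroid receptors and oestrogen targets, 0.414 to 0.837 for ribosomal proteins, 0.945 to 0.982 for neutrophil against interferon scores and 0.103 to 0.861 for cell cycle against ribosomal scores. It kept 0 to 3 of the 5 genes most like EPCAM, 0 to 4 for OVGP1, 3 to 5 for MYLK, 2 to 4 for ITGA8 and 0 to 4 for PECAM1. The cause of these shifts was not tested, beyond the smaller number of arrays. Of the recomputed values of these counts, shares, correlations and gene overlaps, 51 shifted beyond these limits and 2 reversed in sign. The other 462 stayed within the limits. All 1680 recomputed means of single genes shifted by no more than the SD of that gene between the 8 arrays. Most of these left out 1 array, which cannot move a mean that far, so they say nothing about stability.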
